A study of Mus musculus with 9 samples.

Results

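RNA was compared between mesenchymal stromal cells (the bone marrow support cells that surround blood vessels and feed blood-forming cells) from 18-month-old mice labelled as Thbs1 knockouts and from 18-month-old controls. The comparison covers 6 of the 9 libraries of the series, 3 in each group, and the 11457 genes that had an FPKM of at least 1 in 3 or more of these 6 libraries, out of 30579 genes in the table. FPKM counts fragments per kilobase of transcript, scaled to the library's mapped fragments. The other 3 libraries came from 3-month-old control mice. Their values stand beside the results without a test, since any comparison of them with the aged controls would share those controls. Every mouse, whatever its genotype and age, was injected behind the eye with an antibody to VE-cadherin, a protein of the endothelial surface, 10 minutes before it was killed. Long bones were taken, cells were sorted into TRIzol-LS, and 2 ng of total RNA per library was amplified with the SMART-Seq v4 kit. The Thbs1 allele, the strain, the sort gates and the number of mice behind each library were not given in the sources used here, so that separate libraries need not be separate mice. The p-values therefore measure the spread between these libraries, which may be technical in part.

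Thbs1 encodes thrombospondin-1, a large glycoprotein that cells secrete into the matrix. It binds the receptor Cd47 and other cell-surface proteins, inhibits new vessel growth and can release TGF-beta from its latent complex. Marrow stromal cells are known for the chemokine Cxcl12 and the growth factor Kitl, which hold and maintain blood stem cells, and they can give rise to bone-forming, cartilage-forming and fat-storing cells.

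The deposited FPKM values fell on whole-read steps in 99.21% to 100% of the low values of each library, with a tolerance of 0.1 read, from which the depth was read as 17.72 M to 27.6 M fragments. At the shallowest of these depths 3 reads on a gene of 2 kb amount to 0.0847 FPKM. Genes that define stromal cells were abundant in every library, with Lepr at 233 to 673 FPKM and Pdgfrb at 94.9 to 273 FPKM. Of defining genes of other cells, Cd3e of T cells was at most 0.04 FPKM and Ptprc of leukocytes at most 4.14 FPKM. Other leukocyte genes were not low throughout. The list of 15 pan-leukocyte genes that holds Ptprc summed to 2042, 2257 and 683.2 FPKM in aged control libraries 1 to 3. In labelled-knockout libraries 1 to 3 the sums were 65.81, 676.5 and 160.2 FPKM. Endothelial genes reached 0.1 FPKM for Kdr, 1.01 for Emcn, 1.99 for Cdh5 and 11.58 for Pecam1, which blood cells share. Genes of B and plasma cells were not low throughout either: Cd79a reached 43.16 and Jchain 1103.57 FPKM. Immunoglobulin genes, made by B and plasma cells, took 21.55%, 4.269% and 31.88% of the fragments in aged control libraries 1 to 3. They took 0.1616%, 19.21% and 2.357% in labelled-knockout libraries 1 to 3, and at most 0.1701% in the young libraries. Labelled-knockout library 2 stood apart: its correlation over the tested genes (log2 scale, a description across genes) was 0.728 to 0.806 with the other 8 libraries, while labelled-knockout libraries 1 and 3 reached 0.948 with each other. Library 1 was at 0.928 to 0.968 with the young libraries and 0.761 to 0.827 with the aged controls, and library 3 at 0.923 to 0.938 and 0.806 to 0.866. The fewest genes above 0 (13503) were in labelled-knockout library 2.

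Thbs1 RNA (ENSMUSG00000040152.8, GRCm38 chr2:118111876-118127133, plus strand) was present in every library labelled as a knockout. Its FPKM was 24.28, 44.55 and 37.05 in labelled-knockout libraries 1 to 3 and 35.56, 41.89 and 36.85 in the aged controls, so that the groups overlapped. In the young libraries it was 74.98, 73.11 and 58.03, above all 6 libraries of 18 months. The difference at 18 months was -0.15 on the log2(FPKM + 1) scale (standard error 0.26, 95% interval -0.72 to 0.43, limma adjusted p = 0.80). An exact permutation test over the 6 libraries gave a two-sided p of 0.9, where 0.1 is the smallest that 3 against 3 can give. Across all alternative settings the difference ran from -0.61 (libraries rescaled by median ratios and labelled-knockout library 2 left out, adjusted p = 0.0927) to 0.09. A gene-level FPKM does not show which exons were read. As the allele was not given, whether it lowers this value is not known. This measurement therefore neither bears out nor refutes the label. The libraries are therefore called by their label throughout.

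None of the 19 tested thrombospondins and thrombospondin receptors (of 20 listed) passed limma's test, where 3.81% of all tested genes passed in either direction. At an unadjusted p under 0.05 there were 4 of 19, beside 20.3% of all tested genes. Without labelled-knockout library 2, 4 of them were higher (11.4% of all tested genes). Thbs2, the closest relative of Thbs1, was at 27.75, 4.69 and 20.48 FPKM in the labelled knockouts and 10.53, 11.95 and 11.41 in the aged controls (log2 difference 0.31, adjusted p = 0.80). Thbs4, a matrix thrombospondin of tendon and muscle, was at 1.14, 12.8 and 64.84 FPKM against 1.21, 0.27 and 1.46, with a difference of 2.71 and an adjusted p of 0.16. The groups overlapped for both genes. Cd47, the receptor, was at 67.18, 83.04 and 69.05 FPKM against 83.65, 105.26 and 58.44, a difference of -0.14 (95% interval -0.70 to 0.43, adjusted p = 0.81). Sdc4, a heparan sulphate proteoglycan that binds thrombospondin-1, was at 118.42, 76.79 and 133.22 FPKM against 44.37, 65.35 and 48.76. Its groups did not overlap, and its difference of 1.02 had an adjusted p of 0.0737. The median difference of the family was 0.13, beside 0.07 for all tested genes, and it was -0.06 when the immunoglobulin genes were left out of the scaling.

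Over all tested genes, 437 of 11457 passed limma's test at an adjusted p under 0.05, of which 195 (1.70%) were higher and 242 (2.11%) were lower in the labelled knockouts. All 3 labelled-knockout values lay above all 3 aged control values for 1937 genes (16.9%) and below them for 753 (6.57%). In RNA from many sorted cells, fewer cells of a type and less RNA per cell cannot be told apart. The fit drew its estimate of the spread from all 9 libraries. The median standard deviation within a group, on the log2 scale, was 0.207 for the young, 0.237 for the aged control and 0.494 for the labelled-knockout libraries. Fitted on the 6 libraries of 18 months alone, the same test passed 14 genes, 5 higher and 9 lower, and all 14 were among the 437. Without labelled-knockout library 2 it passed 1305 higher (11.4%) and 538 lower (4.70%), and the median difference of all genes was 0.25 instead of 0.07. These shares are the background for every list count given below without that library. Leaving out another library gave 101 genes without labelled-knockout library 1 and 100 without library 3. The corresponding numbers were 28, 97 and 539 without aged control libraries 1, 2 and 3, and 100, 118 and 112 without young libraries 1, 2 and 3. Rescaling by median ratios gave 183 higher and 341 lower, and rescaling without the immunoglobulin genes gave 132 higher and 366 lower, with the median of all genes at -0.04 and -0.11. No gene among the 437 changed sign in any of the 23 alternatives. Those that changed only the filter, the intensity trend, the blocking or the young libraries left each difference as it was. So did weights shared within a group, and in all of these a change of sign was not possible. Of the 437 genes, 127 reached 1 FPKM in no labelled-knockout library and in all 3 aged controls, 23 the other way round, and 177 in all 6 libraries.

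**Figure D1:**
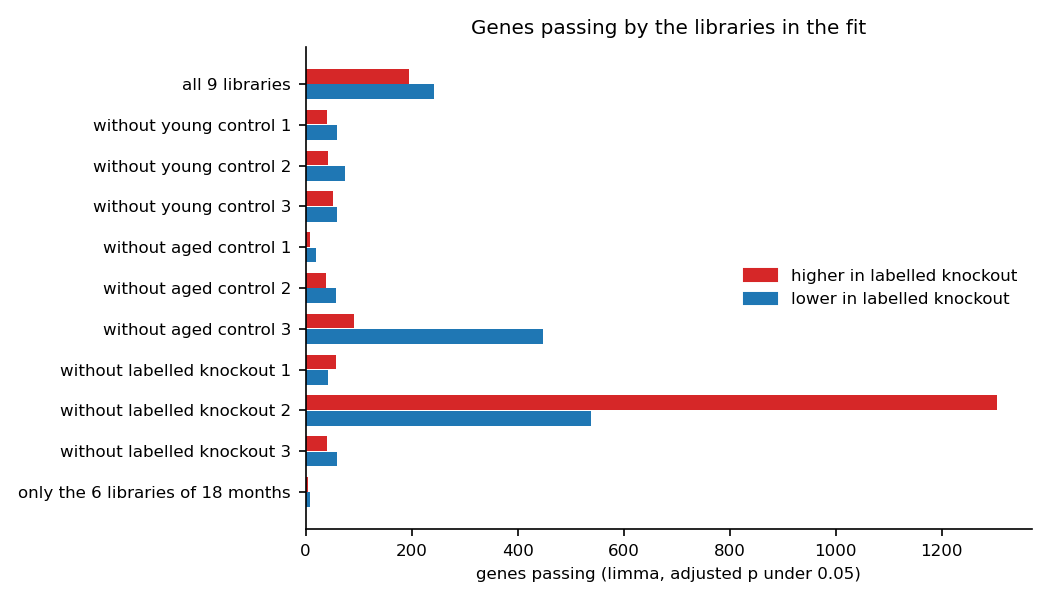
Number of genes passing limma's test at 18 months (horizontal axis, genes higher and genes lower in the labelled knockouts) for the fit of all 9 libraries, for each library left out in turn and for the 6 libraries of 18 months alone. The count runs from 14 (6 libraries) to 1843 (labelled-knockout library 2 left out), beside 437 with all 9.

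**Figure D2:**
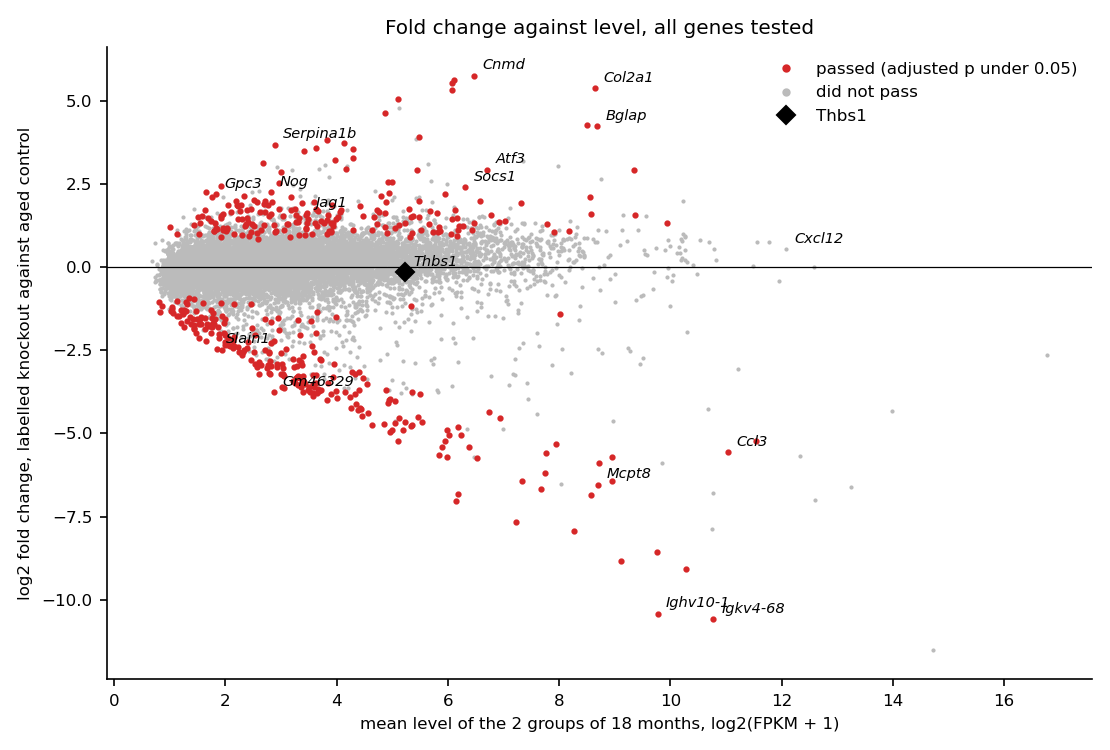
Difference between labelled knockouts and aged controls (vertical axis, log2(FPKM + 1)) against mean level over the 6 libraries (horizontal axis, log2 scale) for the 11457 tested genes, with those that passed coloured. Thbs1, the diamond, lies at -0.15, near the median of all genes.

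A group of 13 genes passed in every alternative that tested them, the 6-library fit included. Of these, 4 rose (Atf3, Socs1, Gpc3 and Serpina1b), and 9 fell (the long noncoding RNA Gm46329, Slain1 and 7 immunoglobulin variable genes). At 18 months, Gpc3 and Serpina1b reached 1 FPKM in the labelled knockouts alone. Gm46329, Slain1 and the variable genes Ighv1-64, Ighv10-1, Igkv12-46, Igkv2-109 and Igkv6-17 reached it in the aged controls alone. For these genes the direction found was the one change they could show. Atf3, a stress-induced transcription factor (chr1:191170296-191218039, minus strand), was at 167.26, 148.14 and 236.15 FPKM in the labelled knockouts, and at 21.81, 25.8 and 21.17 in the aged controls. Its young values of 141.63, 93.15 and 86.15 lay between the groups of 18 months. The difference was 2.93 (standard error 0.27, adjusted p = 0.0018, and 0.021 in the 6-library fit). Socs1, an inhibitor of cytokine signalling through JAK kinases (chr16:10782240-10785536, minus strand), was at 121.63, 158.51 and 118.09 FPKM against 19.23, 31.25 and 23.73, and at 81.53 to 110.66 in the young libraries. It rose by 2.39 (standard error 0.25, adjusted p = 0.0030). Gpc3, a cell-surface proteoglycan that tunes growth factor signalling (chrX:52272426-52613950, minus strand), was at 5.09, 5.15 and 4.37 FPKM against 0.47, 0.31 and 0.12. Its young values were 2.26 to 2.68, and it rose by 2.18 (standard error 0.20, adjusted p = 0.0018). In each of these 3 genes the labelled-knockout values lay above all 6 control values, young and aged.

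Slain1, a microtubule plus-end protein (chr14:103650228-103704907, plus strand), was at 5.75, 6.48 and 3.27 FPKM in the aged controls. It was at 0.05, 0.07 and 0.11 FPKM in the labelled knockouts and at most 0.07 in the young libraries, and it fell by 2.48 on the log2 scale (adjusted p = 0.0023). The aged controls were therefore the group that stood out for Slain1. The authors' table also holds its antisense partner Slain1os, and without knowledge of strand in the counting the reads of the pair cannot be told apart. Gm46329 (chr12:57951211-58077436, plus strand) showed another order: it was at 18.19, 18.78 and 36.31 FPKM in the young and 12.78, 14.79 and 10.41 in the aged controls, and was listed at 0 in all 3 labelled knockouts (adjusted p = 5.8e-04). It was the only gene of the table at more than 1 FPKM in all 6 control libraries and under 0.1 in all 3 labelled knockouts. Gm46329 was named because it passed in the fit of these same libraries. Its separation of the groups is therefore no check of the label. No other gene model of GENCODE M21 overlaps it.

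Serpina1a and Serpina1b encode alpha-1-antitrypsin, a serum inhibitor of neutrophil elastase, and lie in a cluster of near-identical copies on chromosome 12. Both are reported with that uncertainty, because how reads that match several copies were assigned was not given in the sources used here. Coding sequences of Serpina1a (chr12:103853589-103863562, minus strand) and Serpina1b (chr12:103728156-103830373, minus strand) differed at 37 of 1239 positions, an identity of 97.0%. Serpina1b was at 9.16, 13.31 and 15.96 FPKM in the labelled knockouts, at 0.05, 0 and 0.12 in the aged controls, and the young libraries had 0.68, 1.68 and 1.52. It rose by 3.68 (standard error 0.27, adjusted p = 5.3e-04). Serpina1a was at 7, 12.72 and 11.63 FPKM against 0.38, 0 and 0.5 (difference 3.13, adjusted p = 0.020). Like Serpina1b, it reached 1 FPKM in every labelled-knockout library and in no aged control, so that a rise was the only change it could show. Another copy, Serpina1d, whose gene model overlaps that of Serpina1b, was at 30.38, 2.25 and 41.2 FPKM against 1.24, 0 and 2.24 and did not pass (adjusted p = 0.12). Serpina1a and Serpina1b had every labelled-knockout value above every aged control value. For Serpina1d this rested on 2.25 FPKM in labelled-knockout library 2 against 2.24 in aged control library 3, the last decimal given. The copies Serpina1c (1.32, 0 and 3.11 FPKM against 0, 0.05 and 0.11) and Serpina1e (0.64, 0 and 0.03 against 0, 0.09 and 0.15) overlapped.

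**Figure D3:**
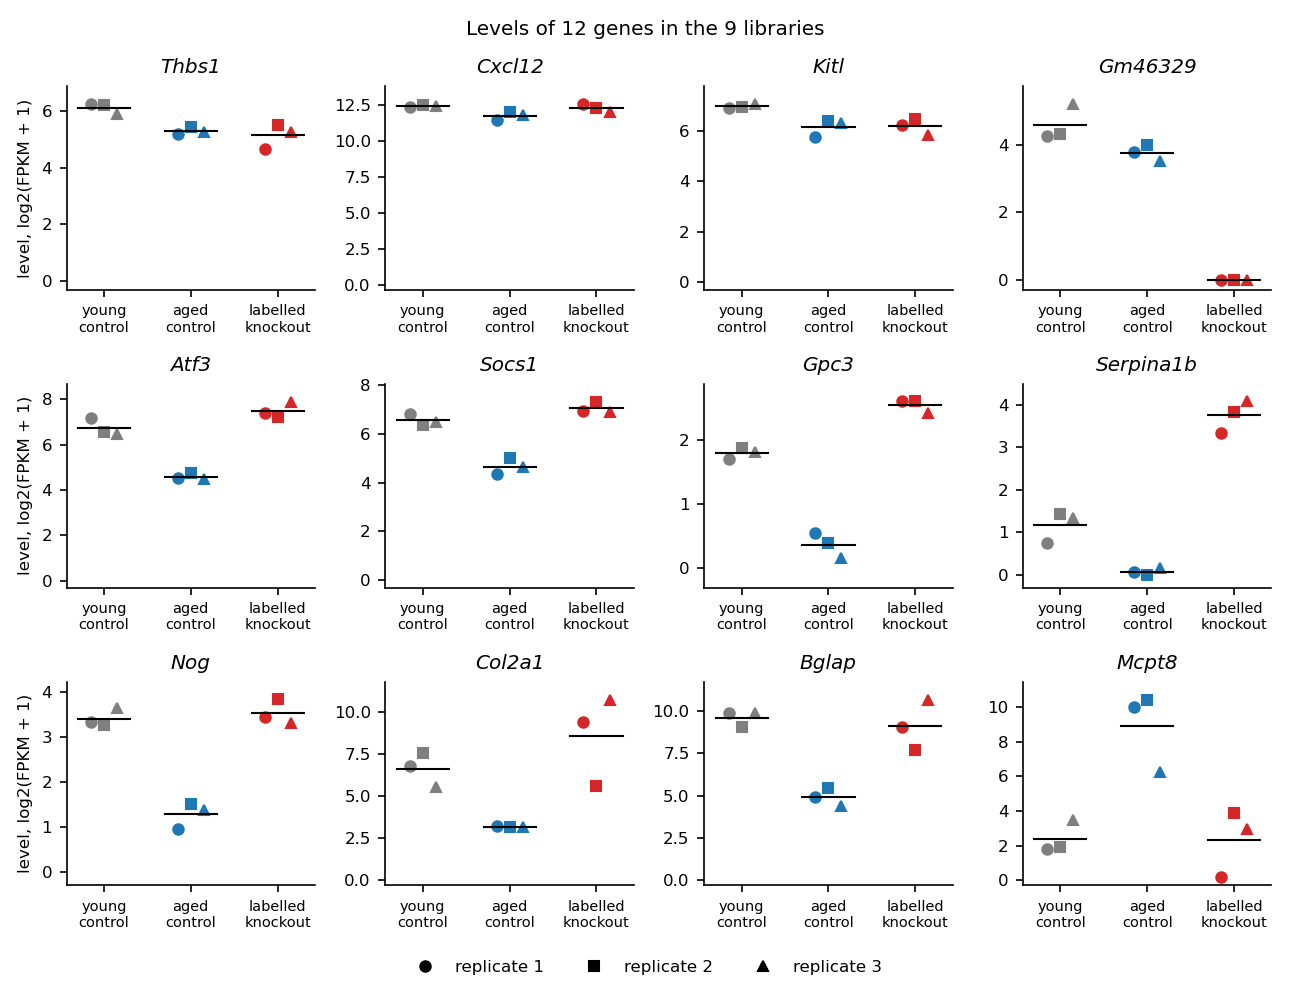
Level of 12 genes in each of the 9 libraries (vertical axis, log2(FPKM + 1)), by group, with the marker shape giving the library number and the line the group mean. Thbs1 overlaps between the groups of 18 months, Gm46329 is at 0 in the labelled knockouts alone, and Mcpt8 is high in the aged controls alone.

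Among the lists, cartilage genes had the largest median difference. Of 24 listed, 18 were tested and 12 passed as higher (0 lower), beside 1.70% of all genes, and the median difference over the 18 was 3.86. All labelled-knockout values lay above all aged control values for 15 of them, beside 16.9% of all genes. Of the 18, 7 reached 1 FPKM in labelled-knockout libraries alone (6 of the 12 that passed), so that a rise was the one change they could show. Sox9, the transcription factor that sets the cartilage lineage, was at 36.3, 12.2 and 44.9 FPKM in the labelled knockouts against 2.7, 1.86 and 3.69 (difference 2.94, standard error 0.43, adjusted p = 0.014). Col2a1, the main collagen of cartilage, was at 667.87, 46.83 and 1665.46 FPKM in the labelled knockouts. The aged controls had 8.28, 8.11 and 7.85 FPKM, and the young libraries 109.56, 183.78 and 44.82. Its difference was 5.37 (standard error 1.09, adjusted p = 0.032). Libraries 1 and 3 of the labelled knockouts were above every young library, and library 2 lay at the low end of the young range.

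The other cartilage genes that passed had the same order within the labelled knockouts, with library 3 highest and library 2 lowest, apart from Col10a1. Cnmd (chondromodulin, which keeps vessels out of cartilage) was at 126.76, 8.82 and 389.68 FPKM against 0.29, 0.08 and 1.28, a difference of 5.75. Acan, the large proteoglycan aggrecan, was at 28.65, 2.99 and 65.78 FPKM against 0.12, 0.65 and 0.82 (difference 3.73, adjusted p = 0.0495). Col10a1, made by hypertrophic cartilage cells, was at 11.51, 40.3 and 115.1 FPKM against 0.14, 0.88 and 0.89 (difference 4.62, adjusted p = 0.023). The type IX collagen genes Col9a1, Col9a2 and Col9a3, the type XI gene Col11a2, the link protein gene Hapln1, Snorc and Ucma also rose, by 3.58 to 5.62. Those that did not pass were Matn3 (4.78, adjusted p = 0.058), Col11a1 (3.02, adjusted p = 0.064), Comp (1.78), Chad (2.63), Cytl1 (1.51) and Frzb (0.81). The count was 17 without labelled-knockout library 2, 0 in limma's 6-library fit (16 at an unadjusted p under 0.05), and between 0 and 17 with 1 library left out.

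**Figure D4:**
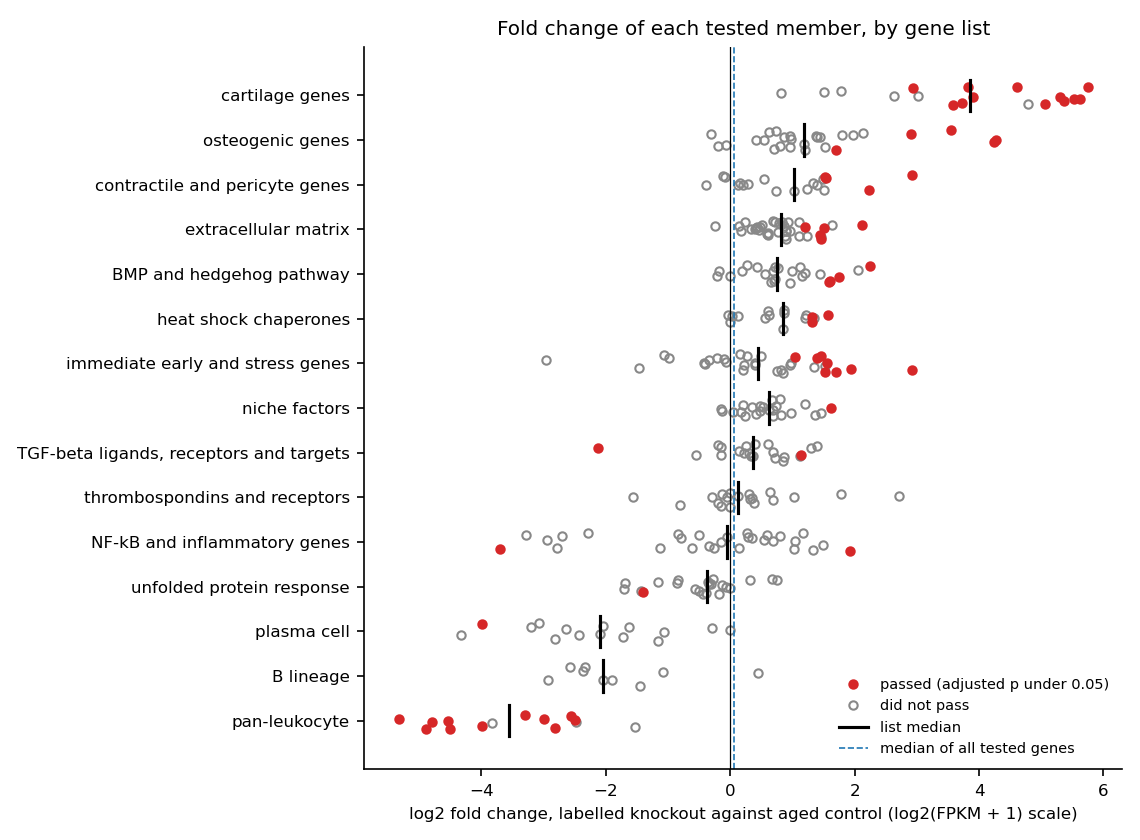
Difference between labelled knockouts and aged controls (horizontal axis, log2(FPKM + 1)) of each tested member of 15 gene lists, with those that passed in red, the list median as a black bar and the median of all tested genes as a dashed line. Cartilage genes have a median of 3.86 and pan-leukocyte genes a median of -3.56.

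Bone-forming genes rose in part. Of 27 tested osteogenic genes (30 listed), 5 rose and 0 fell, with a median of 1.19, beside 1.70% of all genes higher. The count was 16 without labelled-knockout library 2 and 0 to 16 with 1 library left out. Bglap and Bglap2 encode osteocalcin, the most abundant non-collagen protein of bone, and are near-identical neighbours. Bglap (chr3:88383501-88384464, minus strand) and Bglap2 (chr3:88377736-88378699, minus strand) differed at 4 of 285 coding positions, an identity of 98.6%. The first 60 coding bases hold most of the differences, here in capitals (GRCm38, 5′ to 3′), and show why the pair is reported with uncertainty as to which copy gave the reads.
Bglap: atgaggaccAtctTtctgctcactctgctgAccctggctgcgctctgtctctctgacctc
Bglap2: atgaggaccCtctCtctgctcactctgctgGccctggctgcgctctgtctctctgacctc
Bglap was at 536.94, 206.87 and 1637.3 FPKM in the labelled knockouts and at 28.87, 42.67 and 20.04 in the aged controls. Its young values were 947.63, 532.82 and 944.48, and its difference at 18 months was 4.24 (standard error 0.65, adjusted p = 0.018). Bglap2 followed with 366.06, 260.35 and 1475.61 FPKM against 29.21, 34.33 and 17.43 (difference 4.27, adjusted p = 0.011). For both genes the aged controls were lower than every one of the other 6 libraries.

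Sp7 (osterix), a transcription factor needed for bone cell formation, was at 23.26, 15.65 and 36.42 FPKM against 6.27, 6.85 and 6.71 (difference 1.70, standard error 0.29, adjusted p = 0.022). Col1a1, the main collagen of bone, was at 955.59, 502.31 and 2061.65 FPKM against 137.72, 163.99 and 102.75 (difference 2.90, adjusted p = 0.030). Smpd3, a sphingomyelinase of the skeleton, rose by 3.54. Runx2, the earlier regulator of the lineage, did not pass: it was at 14.6, 24.2 and 19.09 FPKM against 10.34, 17.19 and 9.51 (difference 0.62, 95% interval -0.02 to 1.26, adjusted p = 0.26). Ibsp (0.74, adjusted p = 0.49), Spp1 (0.41, adjusted p = 0.62) and Alpl (1.52, adjusted p = 0.24), which encode mineral-binding matrix proteins and an alkaline phosphatase, overlapped between the groups. In limma's 6-library fit 0 osteogenic genes passed, and 14 had an unadjusted p under 0.05.

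Of 36 tested genes of the extracellular matrix, 5 rose and 0 fell (median 0.81, beside 1.70% of all genes higher). The count was 17 without labelled-knockout library 2 (11.4% of all genes), 0 in limma's 6-library fit (16 at an unadjusted p under 0.05) and 0 to 17 with 1 library left out. The 5 that rose were the collagen genes Col1a2, Col3a1, Col5a2, Col6a3 and Col15a1. Col15a1 reached 1 FPKM in labelled-knockout libraries alone, so that a rise was the one change it could show. Col1a2, the partner chain of Col1a1, was at 555.65, 310.55 and 988.94 FPKM against 115.7, 155.27 and 114.46 (difference 2.12, adjusted p = 0.031). Col3a1, a fibrillar collagen of soft tissue, was at 123.39, 73.53 and 119.77 FPKM against 33.97, 38.48 and 37.93 (difference 1.46, adjusted p = 0.027). Fn1 (fibronectin) did not pass, with 72.9, 69.95 and 200.77 FPKM against 56.14, 31.66 and 26.53 (adjusted p = 0.15). None of the 15 matrix proteases and inhibitors passed limma's test with all 9 libraries (7 at an unadjusted p under 0.05), and 9 were higher without labelled-knockout library 2.

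Of 19 contractile and pericyte genes, 4 rose (Acta2, Tagln, Tpm2 and Mcam) and 0 fell, with a median of 1.03, beside 1.70% of all genes higher. The count was 9 without labelled-knockout library 2, 0 in limma's 6-library fit (11 at an unadjusted p under 0.05) and 0 to 9 with 1 library left out. Acta2, smooth muscle actin, was at 62.96, 42.11 and 123.64 FPKM in the labelled knockouts, 12.68, 4.18 and 10.19 in the aged controls (difference 2.92, standard error 0.45, adjusted p = 0.018). Tagln, an actin-binding protein of the same cells, was at 61.1, 35.68 and 53.2 FPKM against 8.63, 11.83 and 8.69 (difference 2.23, adjusted p = 0.0082). For both, all 3 labelled-knockout values lay above all 3 aged controls. Mcam, a surface protein of pericytes and stromal progenitors, was at 3.57, 3.51 and 6.87 FPKM against 0.66, 0.5 and 1.78, a difference of 1.52.

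In the BMP and hedgehog pathways, 4 of 24 tested genes rose and 0 fell (median 0.75, beside 1.70% of all genes higher). The count was 15 without labelled-knockout library 2, 0 in limma's 6-library fit (12 at an unadjusted p under 0.05) and 1 to 15 with 1 library left out. Nog (noggin), a secreted inhibitor that binds BMP ligands, was at 9.89, 13.45 and 8.89 FPKM against 0.95, 1.84 and 1.59, and at 8.67 to 11.48 in the young libraries. It rose by 2.25 (standard error 0.24, adjusted p = 0.0039) and passed with each library left out in turn, but not in the 6-library fit (adjusted p = 0.060). The others are targets that BMP receptors induce. Id1 was at 55.96, 70.95 and 53 FPKM against 18.77, 20.55 and 12.79 (difference 1.75, adjusted p = 0.042). Id3 was at 567.21, 509.3 and 642.81 FPKM against 154.37, 209.11 and 208.79 (difference 1.59, adjusted p = 0.020). Smad6, an inhibitor inside the cell, rose by 1.61. The Id genes Id2 (2.06, adjusted p = 0.10) and Id4 (1.12, adjusted p = 0.079) and the ligands Bmp4 (1.21, adjusted p = 0.089) and Bmp2 (0.56, adjusted p = 0.28) did not pass. Bmp4 was at 82.44, 82.66 and 49.2 FPKM against 18.33, 39.14 and 35.86, with no overlap.

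Among 21 TGF-beta ligands, receptors and targets, 1 rose and 1 fell (median 0.37, beside 1.70% higher and 2.11% lower over all genes). With 1 library left out, 0 to 4 were higher and 0 to 1 lower. The 4 were higher without labelled-knockout library 2, beside 11.4% of all genes. Tgfb2, a ligand, was at 4.86, 4.21 and 4.71 FPKM against 0.92, 1.92 and 1.92 (difference 1.14, adjusted p = 0.034). Nrros, which anchors latent TGF-beta on myeloid cells, was at 0.44, 0.24 and 0.58 FPKM against 5.9, 9.48 and 2.23, and fell by 2.12 (adjusted p = 0.025). As Nrros reached 1 FPKM in the aged controls alone, a fall was the one change it could show. Leukocyte genes were also lower in the labelled knockouts, as given further on, and the part of those cells in the fall of Nrros was not tested. Tgfb1, the ligand that thrombospondin-1 is best known to release, was at 7.43, 2.71 and 7.59 FPKM against 10.4, 11.34 and 5.02 (difference -0.55, 95% interval -1.42 to 0.31, adjusted p = 0.46). Smad7, the feedback inhibitor, had values of 15.79, 50.61 and 15.23 FPKM against 6.99, 10.12 and 9.56 (difference 1.30, adjusted p = 0.12). For Smad7, library 2 was the highest of the labelled knockouts and the groups did not overlap.

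Of 17 Wnt pathway genes, Apcdd1, a membrane inhibitor of the pathway, rose and Lgr5, a receptor for R-spondins, fell (beside 1.70% higher and 2.11% lower over all genes). The median was 0.78, with 16 of 17 differences above 0. Without labelled-knockout library 2, 11 were higher (11.4% of all genes) and 1 lower, while the 6-library fit passed 0 (8 at an unadjusted p under 0.05 from limma). Lgr5 was at 0.34, 0.37 and 0.73 FPKM against 3.21, 3.99 and 2.97 (log2 difference -1.57, adjusted p = 0.012). Lgr5 reached 1 FPKM in the aged controls alone, so that a fall was the one change it could show. Jag1, a Notch ligand that stromal cells present to blood cells, was at 18.63, 14.75 and 13.74 FPKM against 3.5, 4.76 and 5.13. It rose by 1.61 (standard error 0.21, adjusted p = 0.0091) and was the single member to pass among 11 Notch pathway genes (0 to 4 with 1 library left out) and among 23 niche factors. In the IGF axis 3 of 13 genes rose (0 to 4 with 1 library left out), beside 1.70% of all genes higher. They were Igfbp4 and Igfbp6, which bind and hold IGF ligands, and the imprinted noncoding RNA H19. H19 reached 1 FPKM in labelled-knockout libraries alone, so that a rise was the one change it could show. Igfbp4 was at 1538.91, 1464.86 and 1200.21 FPKM against 447.75, 544.26 and 702.52 (difference 1.33, adjusted p = 0.031).

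Of the 23 niche factors, Jag1 was the 1 that rose, beside 1.70% of all genes higher, and the median of the 23 was 0.63. The count of members higher was 6 without labelled-knockout library 2 (11.4% of all genes) and 0 to 6 with 1 library left out. Cxcl12 was at 6044.06, 5010.24 and 4226.44 FPKM in the labelled knockouts and at 2873.19, 4131.52 and 3546.82 in the aged controls. The groups did not overlap, but the difference of 0.53 had a 95% interval of -0.13 to 1.19 and an adjusted p of 0.34. Kitl was at 73.63, 86.96 and 55.8 FPKM against 52.53, 81.67 and 76.63 (difference 0.04, 95% interval -0.53 to 0.61, adjusted p = 0.95), below the young values of 118.57 to 132.05 in every library of 18 months. Lepr, the receptor by which these cells are often recognised, was at 428.7, 233.23 and 372.3 FPKM against 327.76, 582.66 and 388.41 (difference -0.33, adjusted p = 0.62). Vcam1 (0.73, adjusted p = 0.33), Il7 (0.47, adjusted p = 0.40) and Angpt1 (0.24, adjusted p = 0.70) had labelled-knockout library 2 within or below the aged control range and libraries 1 and 3 above it. Without library 2, Vcam1 passed at 1.23 (adjusted p = 0.010) and Il7 at 0.77 (adjusted p = 0.038). The 95% intervals of all 6 of these genes span 0.

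Of 22 tested genes of stromal identity, 3 rose and 0 fell (median 0.66, beside 1.70% of all genes higher). The count was 7 without labelled-knockout library 2, 0 in limma's 6-library fit (8 at an unadjusted p under 0.05) and 0 to 7 with 1 library left out. Twist1, a transcription factor of mesenchyme, was at 23.29, 51.13 and 24.28 FPKM against 7.91, 9.15 and 6.84 (difference 1.83, adjusted p = 0.023). Foxc2, a forkhead factor, was at 18.62, 16.83 and 10.82 FPKM against 3.61, 6.32 and 3.79 (difference 1.56, adjusted p = 0.025), and Mcam was the other. Foxc1, a related factor that maintains Cxcl12-rich cells, was at 71.78, 154.24 and 40.58 FPKM against 34.54, 66.67 and 44.97 and overlapped (adjusted p = 0.43). Of 19 adipogenic genes 0 passed limma's test, and 7 had an unadjusted p under 0.05. Adipoq, which marrow stromal cells share with fat cells, was at 1704.73, 1834.41 and 1332.34 FPKM against 725.7, 992 and 826.57 (difference 0.94, adjusted p = 0.11), with no overlap.

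**Figure D5:**
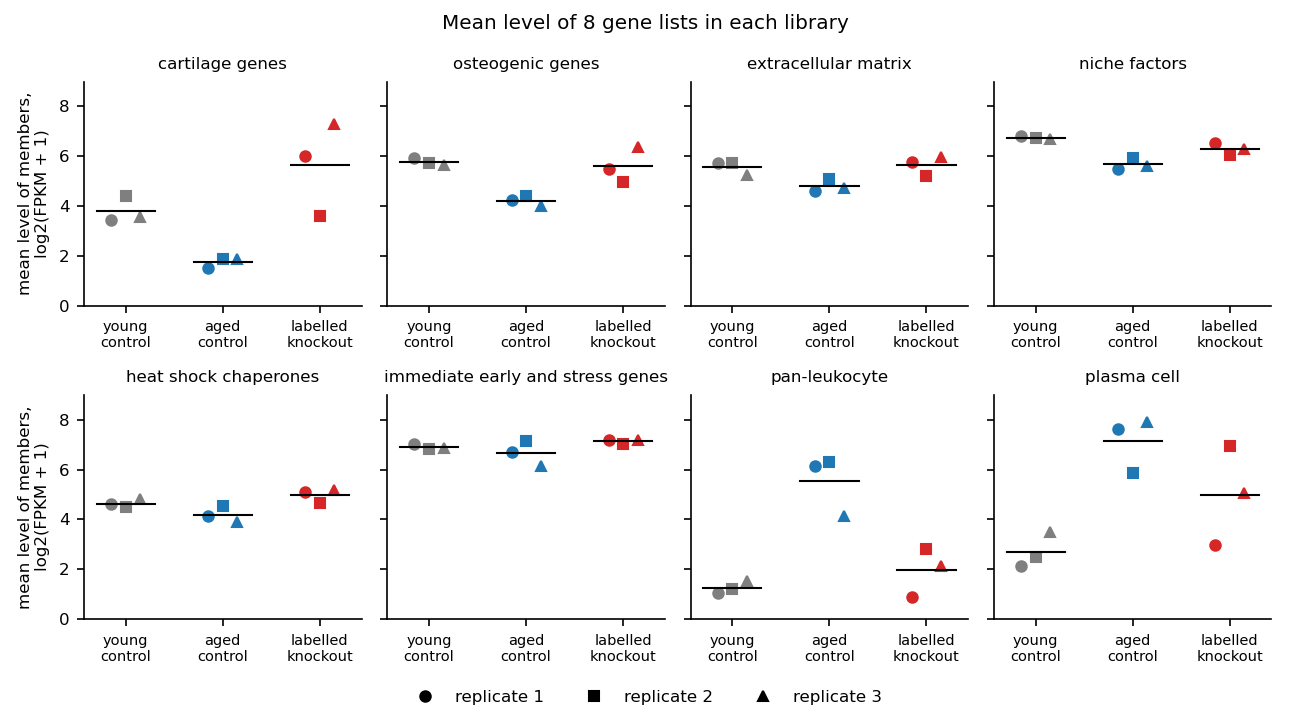
Mean level of 8 gene lists in each library (vertical axis, mean of log2(FPKM + 1) over the tested members), by group. Pan-leukocyte genes are high in aged control libraries 1 and 2, and cartilage genes are high in labelled-knockout libraries 1 and 3.

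Immediate early and stress genes, which cells switch on within minutes of a stimulus, rose in part: 8 of 32 tested passed as higher (1.70% of all genes) and 0 as lower, with a median of 0.45. The count higher was 11 without labelled-knockout library 2, 1 in the 6-library fit (Atf3) and 1 to 11 with 1 library left out, where 0 to 4 were lower. With the immunoglobulin genes left out of the scaling, 3 were higher and 1 lower. Beside Atf3, these were Socs3, Klf4, Klf2, Nr4a2, Hbegf, Egr2 and Gadd45b. Socs3, the feedback inhibitor of interleukin-6 family signalling, was at 1238.26, 800.26 and 891.22 FPKM against 234.03, 448.23 and 332.46 (difference 1.55, adjusted p = 0.039). Klf4, a zinc-finger factor, was at 25.7, 79.84 and 35.75 FPKM against 9.39, 11.14 and 9.95 (difference 1.95, adjusted p = 0.045). Gadd45b, a stress protein, was at 183.04, 178.48 and 197.87 FPKM against 51.94, 79.79 and 83.48 (difference 1.40, adjusted p = 0.023). In all 3 the groups did not overlap. The members of the AP-1 and Egr families that are usually the most abundant of the class did not pass: Fos (0.76, adjusted p = 0.18), Jun (0.16, adjusted p = 0.83) and Egr1 (0.26, adjusted p = 0.75).

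The promoters of these 8 genes, picked because they passed, were read from RefSeq (GRCm38.p6), where 7 of the 8 had an entry. Motifs were not counted for the list members that did not pass, so the counts cannot tell the 8 from the rest of the list. In the 250 bases before the start, on either strand, TGACG, the shared core of cyclic AMP response and ATF sites, was found in 5 of the 7 (Egr2, Atf3, Nr4a2, Klf2 and Klf4), beside 19.8% of all 27025 genes with a window and 31.1% of the 8847 tested ones. The full site TGACGTCA was in 0 of 7 (1.8% of all genes, 2.9% of the tested ones) and the AP-1 site TGANTCA in 0 of 7 (7.8% and 5.2%). The serum response element, the CArG box, was in 1 of 7 (Egr2, beside 1.6% and 1.4%). TGACGTCA contains TGACG, so these counts overlap. Stretches of 60 bases around the match are shown 5′ to 3′ on the gene's strand, with TGACG or its complement CGTCA in capitals, for Atf3 (chr1:191183334-191183393, minus strand), Egr2 (chr10:67537786-67537845, plus strand), Nr4a2 (chr2:57124083-57124142, minus strand) and Klf4 (chr4:55532666-55532725, minus strand).
Atf3: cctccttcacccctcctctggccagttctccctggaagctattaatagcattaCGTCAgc
Egr2: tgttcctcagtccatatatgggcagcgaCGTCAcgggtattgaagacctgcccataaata
Nr4a2: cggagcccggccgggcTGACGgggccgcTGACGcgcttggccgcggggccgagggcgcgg
Klf4: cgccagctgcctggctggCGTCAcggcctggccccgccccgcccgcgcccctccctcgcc
Such a match describes letters in a window and shows no binding.

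Heat shock chaperones had 3 higher and 0 lower of 16 (median 0.86, beside 1.70% of all genes higher). The count was 10 without labelled-knockout library 2, 0 in limma's 6-library fit (7 at an unadjusted p under 0.05) and 0 to 10 with 1 library left out. Hspa1a, the inducible Hsp70, was at 19.11, 22.16 and 19.59 FPKM against 5.14, 13.25 and 6.18 (difference 1.31, adjusted p = 0.0497). It is one of a pair of near-identical copies and is uncertain in the same way as the osteocalcin genes, and the other, Hspa1b, overlapped between groups (adjusted p = 0.32). Bag3, a co-chaperone, was at 21.65, 17.35 and 22.18 FPKM against 6.47, 8.57 and 7.8 (difference 1.31, adjusted p = 0.019). Cryab, a small heat shock protein, rose by 1.56. Of 22 genes of the unfolded protein response, Hsp90b1, the endoplasmic reticulum chaperone, was alone in passing and was lower, beside 2.11% of all genes lower. It was at 119.9, 141.31 and 144.36 FPKM against 335.44, 237.39 and 577.88 (log2 difference -1.41, adjusted p = 0.045). The aged control order of Hsp90b1, library 3 highest and library 2 lowest, was also that of the immunoglobulin share. In labelled-knockout library 2, with an immunoglobulin share of 19.21%, Hsp90b1 was at 141.31 FPKM. The part of plasma cells in the difference was not tested.

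Among 20 senescence and secretory genes, 4 rose (Cdkn1c, Gdf15, Igfbp4 and Cxcl10) and 0 fell, with a median of 0.62, beside 1.70% of all genes higher. The count was 7 without labelled-knockout library 2, 1 with the immunoglobulin genes left out of the scaling, 0 in limma's 6-library fit (10 at an unadjusted p under 0.05) and 0 to 7 with 1 library left out. Cdkn1c, the cell cycle inhibitor p57, was at 88.16, 59.41 and 86.74 FPKM against 34.02, 41.25 and 33.72 (difference 1.07, adjusted p = 0.043). Gdf15, a stress hormone, was at 12.62, 15.66 and 12.88 FPKM against 3.58, 5.37 and 3.94 (difference 1.48, adjusted p = 0.023). Cdkn1a, the inhibitor p21 that marks senescent cells, was at 123.04, 80.91 and 172.8 FPKM against 34.84, 64.1 and 41.55 and fell short of the threshold (difference 1.38, adjusted p = 0.057). All 3 genes were higher in each labelled-knockout library than in each aged control. None of the 26 cell cycle genes passed limma's test (3 at an unadjusted p under 0.05, median -0.51, with 2 of 26 differences above 0).

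Of 29 NF-kB and inflammatory genes, 1 rose and 1 fell (median -0.05, beside 1.70% higher and 2.11% lower over all genes). With 1 library left out, 0 to 8 were higher and 0 to 7 lower, and 8 and 5 without labelled-knockout library 2. With the immunoglobulin genes left out of the scaling, 1 was higher and 4 lower. Ccl2, a chemokine that draws monocytes, was at 278.61, 321.96 and 148.75 FPKM against 46.46, 96.22 and 52.56 (difference 1.93, adjusted p = 0.034). Ptgs2, the inducible cyclooxygenase, was at 0.58, 1.18 and 4.58 FPKM against 45.32, 113.87 and 7.01, a log2 difference of -3.71 (adjusted p = 0.047). Il6, an inflammatory cytokine, was at 34.62, 29.96 and 46.06 FPKM against 290.4, 534.2 and 38.16 and overlapped through aged control library 3 (adjusted p = 0.16). With all 9 libraries 0 genes passed among 36 of oxidative phosphorylation (15 with no overlap, all higher, beside 16.9% of all genes), 33 ribosomal protein genes, 25 of glycolysis and hypoxia, 23 of cholesterol and fatty acid synthesis, 25 antioxidant genes, 23 interferon-stimulated genes and 16 of antigen presentation. At an unadjusted p under 0.05 limma gave 19 of these 181 genes (10.5%, beside 20.3% of all tested genes). The medians of these lists ran from -0.10 to 0.57.

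Most tested genes of the pan-leukocyte list fell. Of 14 tested pan-leukocyte genes (15 listed), 11 fell and 0 rose, with a median of -3.56, beside 2.11% of all genes lower. Cd52, Arhgdib and Rac2 did not pass. Of those that fell, the gene Was reached 1 FPKM in the aged controls alone, so that a fall was the one change it could show. The summed FPKM of the list was 2042, 2257 and 683.2 in aged control libraries 1 to 3, 65.81, 676.5 and 160.2 in labelled-knockout libraries 1 to 3, and 60.6 to 113 in the young libraries. The count was 12 without labelled-knockout library 2, 0 in limma's 6-library fit (13 at an unadjusted p under 0.05) and 0 to 13 with 1 library left out. Itgb2, the beta-2 integrin chain of leukocytes, was at 0.18, 3.56 and 0.94 FPKM in the labelled knockouts against 87.29, 127.86 and 18.31 (log2 difference -4.79, standard error 0.70, adjusted p = 0.014). Vav1, a signalling protein of blood cells, was at 0.15, 1.34 and 0.73 FPKM against 12.91, 14.33 and 6.57 (log2 difference -2.81, adjusted p = 0.0072).

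The largest falls outside the immunoglobulin genes included Mcpt8, Prss34 and Fcer1a, which are known from basophils and mast cells. Mcpt8, a basophil protease, was at 0.15, 13.98 and 6.71 FPKM in the labelled knockouts, against 1020.68, 1375.6 and 75.62 in the aged controls. The young libraries had 2.51, 2.71 and 10.13 FPKM. Its log2 difference was -6.54 (standard error 1.20, adjusted p = 0.026). Fcer1a, the alpha chain of the IgE receptor, was at 0.73, 0.17 and 4.01 FPKM against 442.08, 486.26 and 28.72 (log2 difference -6.42, adjusted p = 0.018). Prss34, another protease, was at 0.25, 24.76 and 7.11 FPKM against 1543.6, 1319.98 and 83.62. The aged controls split in the same way for each, with libraries 1 and 2 more than 10 times library 3, and the labelled knockouts were below all 3. Hdc, the enzyme that makes histamine, was at 0.62, 1.14 and 4.73 FPKM against 138.62, 287.69 and 16.39. Gata2, a transcription factor of these cells and of blood progenitors, was at 0.74, 1.47 and 2.83 FPKM against 151.31, 207.2 and 12.6 (log2 difference -4.89, adjusted p = 0.024). The secreted signals Osm, a cytokine, and Ccl3, a chemokine, fell as well: Osm was at 1.4, 18.16 and 10.25 FPKM against 900.45, 1496.48 and 79.68, and Ccl3 was at 8.19, 128.74 and 108.13 against 4746.06, 7177.57 and 407.19. These genes were picked by the size of their fall, and no list of such cells was fixed.

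Genes of other blood cells differed less evenly. Of 11 neutrophil genes 2 fell, Mpo and Cxcr2 (median -1.27), beside 2.11% of all genes lower. Mpo, the enzyme of neutrophil granules, was at 0.11, 0.06 and 0.07 FPKM against 12.6, 4.23 and 13.36 (log2 difference -3.22, adjusted p = 0.0045). It passed with each library left out in turn, but not in limma's 6-library fit (adjusted p = 0.063). Of 8 blood progenitor genes Gata2 and Gfi1b fell. Of 18 monocyte genes 7 were tested, of which Fcgr3 fell, and of 14 T and NK genes 3 were tested, of which Nkg7 fell. Like Mpo, Cxcr2, Gfi1b and Pecam1, these 2 reached 1 FPKM in the aged controls alone, so that a fall was the one change they could show, and their counts support nothing about the lists. Of 10 erythroid genes 0 passed, also at an unadjusted p under 0.05 from limma. Of 20 endothelial genes 3 were tested, and Pecam1, which leukocytes and platelets also carry, fell from 9.34, 11.58 and 2.07 FPKM to 0.02, 0.42 and 0.37. Cdh5 (VE-cadherin), the antigen of the injected antibody, was at 1.99 FPKM in labelled-knockout library 2 and at most 0.11 in the other 8 libraries.

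Immunoglobulin genes and their cells were uneven in both groups. Of 69 immunoglobulin genes tested, 19 fell and 0 rose, beside 2.11% of all genes lower. Some of the 19, among them variable genes named earlier, reached 1 FPKM in the aged controls alone and could only fall. How many of the 19 were of this kind was not counted, so they cannot be weighed against the 2.11%. Igkc, the kappa constant region, was at 1057.56, 235332.5 and 19821.37 FPKM in the labelled knockouts against 173226.8, 32970.31 and 210878.3, so that library 2 was above all 3 aged controls and no test passed (adjusted p = 0.48). Single variable genes did separate: Ighv10-1 was at 3465.22, 642.89 and 1134.82 FPKM in the aged controls and was listed at 0 in all 3 labelled knockouts (adjusted p = 3.4e-05). Ighv10-1 reached 1 FPKM in the aged controls alone, so that a fall was the one change it could show. Igkv4-68 was at 8339.2, 1488.97 and 687.59 FPKM against 0, 1.39 and 0 (adjusted p = 5.3e-04). A clone of B cells uses few of the variable genes, and different clones can use the same one. These genes are also so alike that reads may be split among them. Of 15 plasma cell genes, only Mzb1, a chaperone of antibody assembly, passed, at 0.08, 0 and 1.03 FPKM against 28.1, 5.64 and 44.77. Without labelled-knockout library 2, 8 plasma cell and 7 of 9 tested B lineage genes were lower, beside 4.70% of all genes.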

How the data were processed

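Bulk RNA was sequenced from 9 libraries (3 groups of 3). The deposited values are FPKM per gene, rounded to 2 decimals, as the authors' table and its headers show. STAR, edgeR, FastQC 0.11.5 and the build GRCm38 (mm10) appear, without their roles, per the submitters' processing notes, and annotation, read counter and treatment of reads that map repeatedly were not given in the sources used here. Because every library is scaled to a common total, very abundant immunoglobulin RNA lowers its other values. Symbols were matched to GENCODE M21 (30192 of 30579, 98.7%). No gene counts were given, so no count test was run.

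Genes with at least 1 FPKM in 3 or more of the 6 libraries of 18 months were tested on log2(FPKM + 1), a scale that understates changes of low genes, with limma 3.58.1 (R 4.3.3, intensity trend). The fit held all 9 libraries (6 residual degrees of freedom), and Benjamini-Hochberg adjustment ran over 11457 genes. Intervals are at 95%. The fit was also run on simulated data, in which all 9 libraries of a gene shared the same spread. In the real data the labelled-knockout libraries spread more widely (0.494, beside 0.207 for the young and 0.237 for the aged controls). The simulated data therefore cannot show that the count of 437 holds. Tables and plots were made with Python 3.11.15, pandas 2.3.3, scipy 1.17.1 and matplotlib 3.10.9. The rule for named genes, of which the text gives a part, took Thbs1, the largest rises and falls that passed without overlap at a mean of at least 2 FPKM, the members of each list with the smallest p, 12 fixed genes and those passing in the 6-library fit; further members (among them Thbs2, Sdc4, Runx2, Ibsp, Spp1, Alpl, Bmp2, Id2, Id4, Tgfb1, Smad7, Cdkn1a, Il6, Fn1, Foxc1, Fos, Jun, Egr1, Cd52, Arhgdib and Rac2) were named after their values were seen, as were copies of named genes. The comparison, the lists and the rules were chosen with earlier results of these data known. The 23 alternatives changed the pseudocount, filter, scaling, weights, libraries or blocking.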

Additional observations from a re-analysis of the deposited data

How the results depend on the processing

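The counts depended strongly on the libraries and the scaling. No gene that passed changed sign, but many of the alternatives left each difference as it was and could not have changed it. With each library left out in turn, the genes passing numbered 28 to 1843 (8 to 1305 higher, 20 to 538 lower), and, with each library of 18 months left out, those without overlap 2017 to 4812 higher and 854 to 1778 lower. Leaving out a library can only add genes without overlap, so these counts could not fall below the 1937 higher and 753 lower with all libraries. The 6 libraries alone passed 14 (5 higher, 9 lower), and a fit of 5 libraries without the young group and labelled-knockout library 2 gave 445 higher and 139 lower. No filter on low values passed 92 (32 higher, 60 lower, 1544 lower without overlap), and a minimum of 5 FPKM passed 203 (123 higher, 80 lower, 266 lower without overlap). Leaving out the immunoglobulin genes gave 366 lower, with 1152 higher and 1675 lower without overlap. There the share of higher genes was 26.5% instead of 44.6%. Median-ratio rescaling gave 1522 and quantile normalization 1153 lower without overlap. Median-ratio rescaling without labelled-knockout library 2 passed 1275 (503 higher, 772 lower), with 2685 lower without overlap. Weights shared within a group passed 49 (23 higher, 26 lower). Weights per library passed 5707 (4229 higher, 1478 lower), and their estimation stopped before it converged. The causes were not tested.

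Of the 106 named genes that passed, 14 kept their call in the 6-library fit, 28 with no filter, 98 under median-ratio rescaling and 106 without labelled-knockout library 2. A smaller pseudocount of 0.1 left 347 of the 437 genes passing. Depth limits genes near 0.0847 FPKM.

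The replicate numbers are shared by the groups, but do not pair the libraries: deviations of the same-numbered aged control and labelled-knockout libraries correlated at -0.213, -0.141 and -0.009, and a library did not correlate best with its own number. With the replicate number as a block, 73 genes passed, 31 higher and 42 lower.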
